A study of Homo sapiens with 18 samples.

Results

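The membrane adenylyl cyclases are the 9 genes ADCY1 to ADCY9, and they are described here across the 6 groups of a base-editing experiment in HEK293T cells, which derive from human embryonic kidney. They were found by symbol, 9 of the 58870 genes in the deposited table. ADCY1 was selected on these data, by its large fall in the comparison of NRF1 guides with intergenic guides over 3 editors, so its values in that comparison and in each editor are a description without a test. The other 8 genes were included as members of the same family.

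In all groups the cells carried a plasmid with a base editor, a deaminase joined to a Cas9 nickase that changes single bases where a guide RNA binds. The SaABE NRF1 and SaABE intergenic groups had the adenine deaminase ABE8e on nickase SaCas9. The SpABE NRF1 and SpABE intergenic groups had ABE8e on nickase SpCas9, and the SpCBE NRF1 and SpCBE intergenic groups had the cytosine deaminase evoCDA1 on nickase SpCas9. The NRF1 guides were aimed at splice sites of exon 7 of the gene for NRF1, a DNA-binding factor of GC-rich promoters. The intergenic guides were controls. Each group had 3 libraries of polyadenylated RNA, taken 72 hours after 750000 cells were transfected and after 48 hours of puromycin. The cells were selected pools, not clones, so fewer cells with a message and less message per cell cannot be told apart.

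Adenylyl cyclases make the second messenger cyclic AMP from ATP. Receptors coupled to the G protein alpha subunit Gs activate all of the membrane forms, and cyclic AMP then acts through protein kinase A, the exchange factors of the Epac family and the transcription factor CREB. The forms differ in what else they respond to. ADCY1, ADCY3 and ADCY8 respond to calcium and calmodulin, and ADCY1 and ADCY8 are best known from neurons. ADCY5 and ADCY6 are inhibited by calcium and by the Gi alpha subunits. ADCY2, ADCY4 and ADCY7 can be further activated by G protein beta gamma subunits, and ADCY9 is nearly insensitive to forskolin, a plant compound that activates the other membrane forms.

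Total estimated counts were 28101094 to 40687447 per library. Levels are CPM, counts scaled to a common library total, after TMM normalization of that total. The gene count of NRF1 was 35.7 to 43.8 CPM in NRF1-guide libraries and 24.4 to 33.1 CPM in intergenic-guide libraries. Transcripts that have or lack exon 7 are counted together, and the editing is therefore not checked by this value. The study itself reported more of the NRF1 form without exon 7 in cells given these constructs, by RT-PCR and western blot. The 9 HEK293T markers summed to 910 to 1061 CPM with NRF1 guides and 966 to 1107 CPM with intergenic guides. VIM, an intermediate filament gene, supplied most of that sum, at 710 ± 61.4 CPM with NRF1 guides and 714 ± 49.6 CPM with intergenic guides (SD, n = 9 each). Of these 9 markers 3 fell and none rose past adjusted p in edgeR: the neurofilament genes INA (log2 fold change -0.50, 1.91e-13) and NEFL (-0.36, 6.10e-11) and the keratin gene KRT8 (-0.15, 0.00325).

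Markers of other cell types were also summed. The 4 mature neuron markers summed to 16.4 to 20.2 CPM with NRF1 guides and 16.9 to 22.3 CPM with intergenic guides, most of it from SYT1, and none of the 3 tested passed. The 4 fibroblast markers summed to 14.8 to 20.03 CPM with NRF1 guides and 17.6 to 22.2 CPM with intergenic guides, nearly all of it from COL1A1, which fell by 0.18 on the log2 scale (edgeR adjusted p = 0.000411). The 4 blood markers summed to 1.15 to 2.14 CPM with NRF1 guides and 0.858 to 1.64 CPM with intergenic guides. Of these CD14 rose by 0.35 (edgeR adjusted p = 0.0184), and HBB had no count in any NRF1-guide library. The 3 endothelial markers summed to at most 0.408 CPM with NRF1 guides and 0.389 CPM with intergenic guides. The part of these markers in the cyclase values was not tested.

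ADCY1 (ENSG00000164742.16) lies on chromosome 7 from 45574140 to 45723116 on the plus strand (hg38, GENCODE 44). RefSeq promoter windows, from 250 bases before to 50 bases after a gene start on GRCh38.p14, matched 6 of the 9 members by symbol (ADCY1, ADCY2, ADCY3, ADCY4, ADCY5 and ADCY7), with 9 windows in all. They were searched for GCGCANGCGC, the frame of the NRF1 motif with any base at its centre, and for its reverse complement GCGCNTGCGC. Of the 9 windows 1 held a match, the window at the second ADCY1 start, and it is shown here because ADCY1 is also the member with the largest difference between guides. The capitals mark the match.

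ADCY1, chr7:45574118-45574417, plus strand: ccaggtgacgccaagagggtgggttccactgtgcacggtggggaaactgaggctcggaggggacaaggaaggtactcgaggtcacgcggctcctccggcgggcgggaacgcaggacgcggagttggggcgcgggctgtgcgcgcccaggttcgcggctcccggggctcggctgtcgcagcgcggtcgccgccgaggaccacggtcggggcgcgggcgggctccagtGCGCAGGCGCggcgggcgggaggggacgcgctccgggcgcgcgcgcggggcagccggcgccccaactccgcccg

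The match occupies 45574344 to 45574353. It lies 24 to 15 bases before the start at 45574368, which begins the transcript with 20 exons, and in the first intron of the transcript that starts at 45574140. The found letters, GCGCAGGCGC, are not the NRF1 consensus itself, which requires a pyrimidine at that base. No window of a member held that consensus. Over all 35116 windows of the table, 5.78% held the motif with any central base and 2.77% held the NRF1 consensus. The match is a description of letters. The study measured binding of tagged NRF1 by ChIP-Seq, sequencing of the DNA bound to a protein, in HEK293 Flp-In cells. Those data were not read here. The ADCY1 window with the match was 77.7% G and C and the other ADCY1 window 59%. Windows of the other members ran from 49.7% (ADCY5) to 85.3% (ADCY2).

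Per kilobase of exon, 3 cyclases supplied most of the family's messages. ADCY3, ADCY6 and ADCY9 lay between 3.77 and 7.24 CPM per kilobase in every library. ADCY1 followed as the next in all 3 intergenic groups, at 2.63 ± 0.177 (SaABE), 2.10 ± 0.0619 (SpABE) and 2.33 ± 0.0894 (SpCBE) CPM per kilobase (SD, n = 3 each). In the NRF1 groups ADCY1 stood at 0.538 ± 0.0446 (SaABE), 0.522 ± 0.00511 (SpABE) and 0.580 ± 0.0576 (SpCBE) CPM per kilobase. There its range overlapped that of ADCY7 in SpABE and SpCBE cells, and in SaABE cells it lay below ADCY7 and above ADCY5. ADCY5 was the lowest of these 6 in every group, at 0.199 to 0.467 CPM per kilobase. Among the abundant forms the order was not fixed. ADCY3 ranked first in 5 groups, and in the SpCBE intergenic group the ranges of ADCY6 and ADCY3 overlapped, as did those of ADCY9 and ADCY6 in the SaABE intergenic group.

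Summed over the 9 members, the cyclase messages came to 16.3 ± 0.776 CPM per kilobase with NRF1 guides and 19.8 ± 1.87 CPM per kilobase with intergenic guides (SD, n = 9 each). ADCY1 made up 3.37% ± 0.330 of that sum with NRF1 guides and 11.9% ± 0.600 with intergenic guides (SD, n = 9 each). The share of ADCY3 was 38.1% ± 1.34 with NRF1 guides and 30.5% ± 1.67 with intergenic guides. Of the difference of -3.54 CPM per kilobase between the sums, ADCY1 supplied 51.1%, ADCY6 32.2% and ADCY9 17.9%. These shares rest on the union of annotated exons, which for ADCY1 is 13966 bases, and include the difference on which ADCY1 was chosen.

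**Figure D1:**
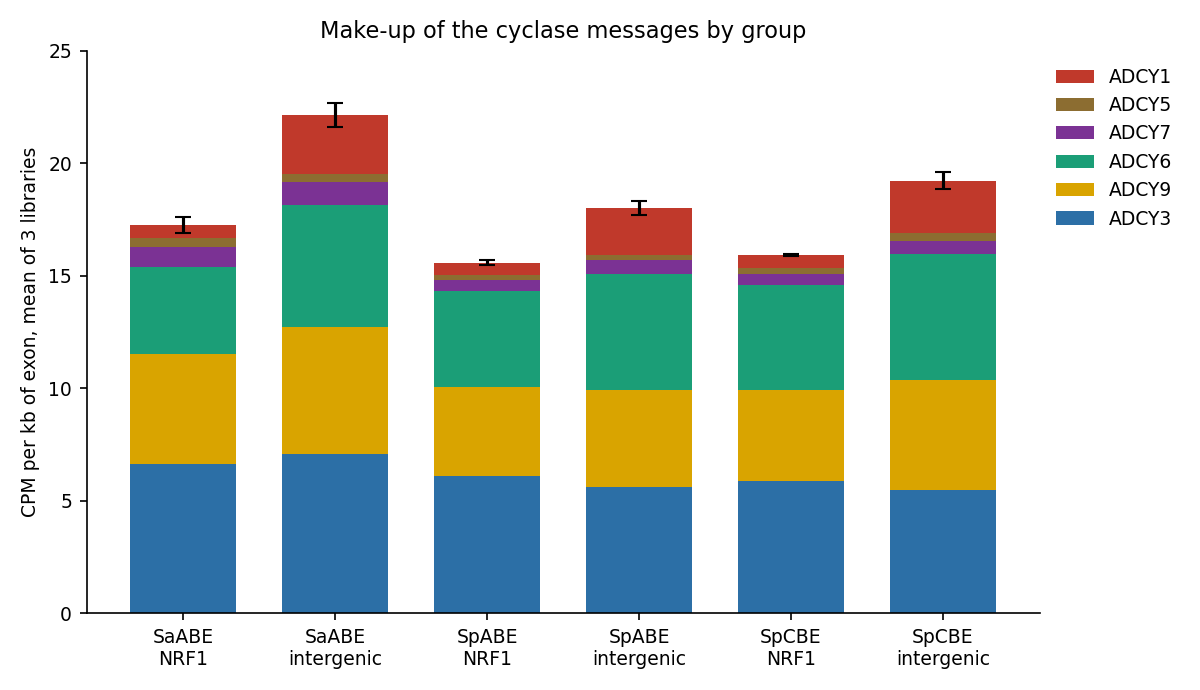
Stacked mean levels of the 6 expressed cyclases in CPM per kilobase of exon (y axis) in the 6 groups (x axis, NRF1 guide left of intergenic guide in each editor). The black bars are the SD of the sum over 3 libraries. The red ADCY1 segment is thinner in each NRF1 group, and the sum is 16.3 CPM per kilobase with NRF1 guides and 19.8 with intergenic guides over the 3 editors.

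Of the 9 members 3 were almost without counts. ADCY2 had 4 counts over the 9 NRF1-guide libraries and 3 over the 9 intergenic-guide libraries. ADCY4 had 7 counts with NRF1 guides and 3 with intergenic guides. ADCY8, the other calmodulin-stimulated form known from neurons, had 6 with NRF1 guides and 3 with intergenic guides. No library held more than 3 counts of any of them, so they did not enter the tests and no fold is given. The other 6 members, ADCY1, ADCY3, ADCY5, ADCY6, ADCY7 and ADCY9, were among the 17743 genes tested.

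ADCY1 was low in every library with an NRF1 guide. In SaABE cells it had 8.13, 6.89 and 7.51 CPM with the NRF1 guide, against 35.0, 35.7 and 39.6 CPM with the intergenic guide. In SpABE cells it had 7.30, 7.21 and 7.35 CPM with the NRF1 guide, against 28.5, 29.2 and 30.2 CPM with the intergenic guide. In SpCBE cells it had 7.27, 8.88 and 8.16 CPM with the NRF1 guide, against 31.5, 33.9 and 32.2 CPM with the intergenic guide. The highest NRF1-guide library, at 8.88 CPM, was far under the lowest intergenic-guide library, at 28.5 CPM. In counts these were 184 to 300 per library with NRF1 guides and 994 to 1434 with intergenic guides.

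The log2 fold change of ADCY1 over the 3 editors was -2.10 with an SE of 0.047, which leaves 0.234 of the intergenic-guide level. It was -2.29 (SE 0.069) in SaABE, -2.01 (SE 0.067) in SpABE and -2.01 (SE 0.066) in SpCBE. Of 11400 tested genes with a mean of at least 5 CPM, 1 had a lower value than ADCY1. A call needed an adjusted p under 0.05 together with a log2 fold change beyond 0.5 in either direction. In the comparison over 3 editors, 1 of the 6 tested members was called, ADCY1, for which it was chosen, beside 5.5% of all tested genes. The member just outside the fold threshold was ADCY6 at -0.34.

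**Figure D2:**
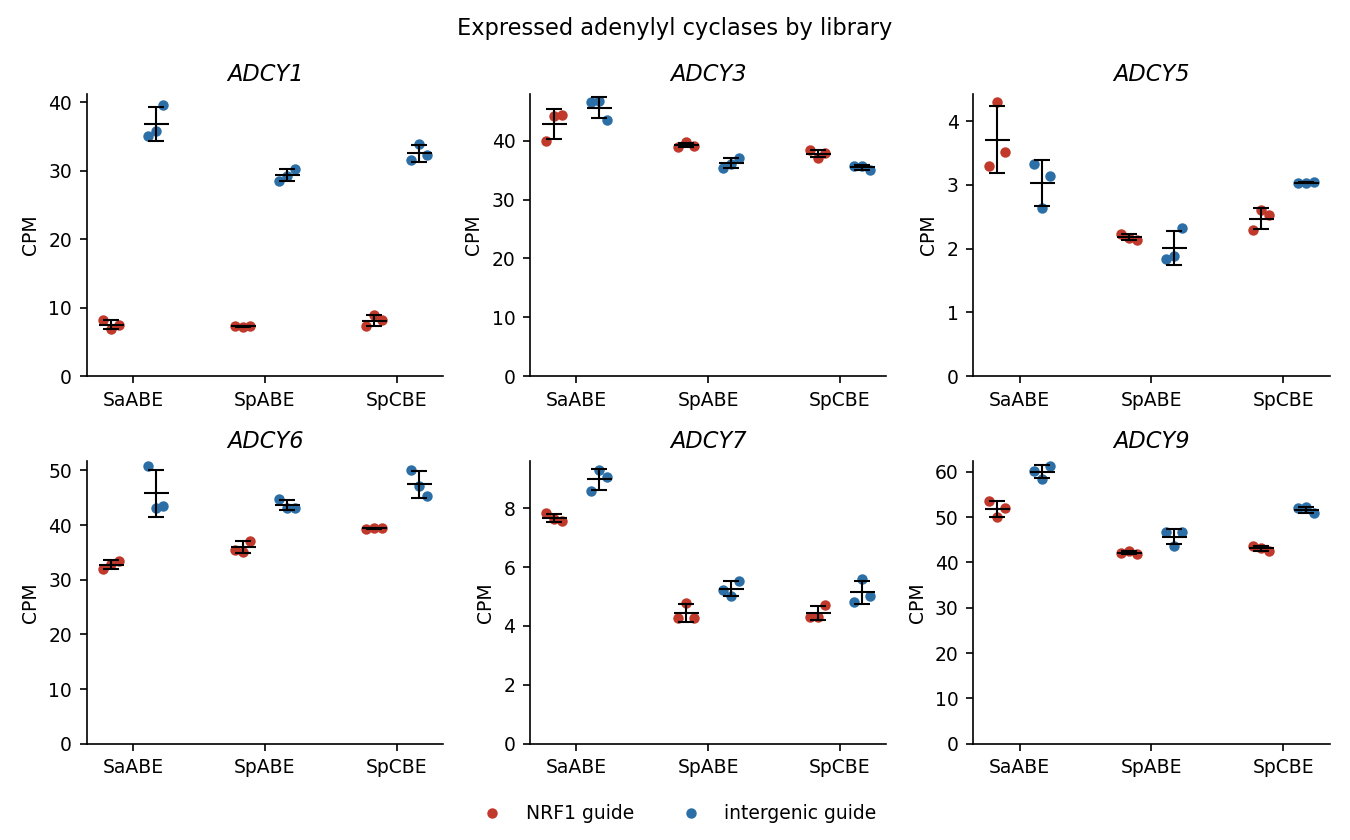
CPM (y axis, from 0, scaled separately in each panel) of the 6 tested cyclases in each library, by editor (x axis), with NRF1-guide libraries in red to the left and intergenic-guide libraries in blue. Black marks are the mean and SD of 3 libraries. ADCY1 had at most 8.88 CPM with NRF1 guides and at least 28.5 CPM with intergenic guides, while the guides differed far less for the other cyclases.

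ADCY6, a calcium-inhibited form found in many tissues, was the other member whose guides did not overlap in any pair of libraries. In SaABE cells it had 31.9, 32.9 and 33.5 CPM with the NRF1 guide, against 50.8, 43.2 and 43.5 CPM with the intergenic guide. In SpABE cells it had 35.5, 35.1 and 37.1 CPM with the NRF1 guide, against 44.8, 43.2 and 43.2 CPM with the intergenic guide. In SpCBE cells it had 39.2, 39.4 and 39.5 CPM with the NRF1 guide, against 50.04, 47.1 and 45.2 CPM with the intergenic guide. All 9 NRF1-guide libraries were below all 9 intergenic-guide libraries. How many of all tested genes have guides separated in this way was not counted, here or for the other genes described. ADCY6 fell by 0.34 on the log2 scale over the 3 editors (SE 0.036, edgeR adjusted p = 3.43e-08), to 36.0 ± 2.94 CPM with NRF1 guides, against 45.7 ± 2.99 CPM with intergenic guides (SD, n = 9 each). By editor the log2 fold changes were -0.48 in SaABE (edgeR adjusted p = 9.12e-08), -0.28 in SpABE (8.41e-05) and -0.27 in SpCBE (0.00018). The SaABE value stood close to the fold threshold and passed it without SaABE intergenic replicate 2 or 3, when 2 members were called in SaABE in place of 1. Over all runs without 1 library it ran from -0.52 to -0.40. SaABE intergenic replicate 1 was the highest library of its group, at 50.8 CPM.

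ADCY9, the forskolin-insensitive form, fell by 0.20 on the log2 scale over the 3 editors (SE 0.025, edgeR adjusted p = 6.65e-07). It had 45.7 ± 4.72 CPM with NRF1 guides and 52.4 ± 6.33 CPM with intergenic guides (SD, n = 9 each). In SaABE cells it had 53.5, 50.1 and 52.0 CPM with the NRF1 guide, against 60.3, 58.4 and 61.3 CPM with the intergenic guide. In SpABE cells the values were 42.0, 42.5 and 42.0 CPM with the NRF1 guide, against 46.6, 43.7 and 46.7 CPM with the intergenic guide. In SpCBE cells they were 43.6, 43.2 and 42.5 CPM with the NRF1 guide, against 51.9, 52.2 and 50.9 CPM with the intergenic guide. The guides were separate within each editor, but the SaABE NRF1 libraries overlapped with the SpCBE intergenic ones. The log2 fold change was -0.21 in SaABE (edgeR adjusted p = 5.40e-05), -0.12 in SpABE (0.0148) and -0.26 in SpCBE (3.49e-06). The SpABE adjusted p was 0.0651 without SpABE intergenic replicate 1 and 0.0909 without SpABE intergenic replicate 3, and under 0.05 without any of the other 16 libraries. It was also over 0.05 with DESeq2 (0.0507) and with no filter on low counts (0.0569). With no editor term in the model the adjusted p over the 3 editors was 0.053.

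ADCY7, a beta gamma-responsive form best known from blood cells, was scarce in HEK293T cells and lower with NRF1 guides. In SaABE cells it had 7.82, 7.63 and 7.57 CPM with the NRF1 guide, against 8.59, 9.29 and 9.08 CPM with the intergenic guide. In SpABE cells it had 4.28, 4.79 and 4.26 CPM with the NRF1 guide, against 5.22, 5.02 and 5.53 CPM with the intergenic guide. In SpCBE cells it had 4.31, 4.29 and 4.70 CPM with the NRF1 guide, against 4.80, 5.58 and 5.03 CPM with the intergenic guide. Each editor's NRF1-guide libraries were below its intergenic-guide libraries. Over the 3 editors ADCY7 fell by 0.23 on the log2 scale (SE 0.047, edgeR adjusted p = 0.000421). With no editor term the adjusted p was 0.427.

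By editor, the log2 fold change of ADCY7 was -0.23 in SaABE (edgeR adjusted p = 0.0312), -0.24 in SpABE (0.0338) and -0.22 in SpCBE (0.0786). Leaving out 1 library moved the SaABE adjusted p within 0.0235 to 0.0937 and the SpABE one within 0.0222 to 0.131. In SaABE it was over 0.05 without SaABE NRF1 replicate 1 (0.0541), 2 (0.0677) or 3 (0.0849) or SaABE intergenic replicate 2 (0.0937) or 3 (0.0762). In SpABE it was over 0.05 without SpABE NRF1 replicate 1 (0.107) or 3 (0.122) or SpABE intergenic replicate 1 (0.0649) or 3 (0.131). Both also fell short with DESeq2 (0.103 in SaABE and 0.129 in SpABE) and with no filter on low counts (0.147 and 0.165), and the SpABE one when that editor's libraries were fitted alone (0.0727). The last 4649 bases of ADCY7 overlap BRD7, a bromodomain gene on the opposite strand that had 163 ± 16.6 CPM with NRF1 guides and 152 ± 14.3 CPM with intergenic guides (SD, n = 9 each). BRD7 rose by 0.09 on the log2 scale (edgeR adjusted p = 0.000175). The strand setting of the counting is not given in the sources used here, so reads of both genes in that stretch may not have been told apart, and their part in the ADCY7 values was not tested.

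ADCY3 is a calcium- and calmodulin-responsive form known from olfactory neurons and primary cilia. With each guide it had the highest mean level per kilobase over the 3 editors, though not in the SpCBE intergenic group. It showed no difference over the 3 editors that passed the test. It had 40.0 ± 2.62 CPM with NRF1 guides and 39.1 ± 5.01 CPM with intergenic guides (SD, n = 9 each). The log2 fold change was 0.04 (95% interval -0.02 to 0.10, edgeR adjusted p = 0.331). In SaABE cells it had 39.9, 44.3 and 44.4 CPM with the NRF1 guide, against 46.6, 46.7 and 43.6 CPM with the intergenic guide. In SpABE cells it had 39.0, 39.7 and 39.1 CPM with the NRF1 guide, against 35.4, 36.1 and 37.1 CPM with the intergenic guide. In SpCBE cells it had 38.4, 37.1 and 37.9 CPM with the NRF1 guide, against 35.7, 35.7 and 35.0 CPM with the intergenic guide. The guides overlapped in SaABE cells, and the NRF1-guide libraries were the higher ones in both SpCas9 editors.

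The log2 fold change of ADCY3 was -0.09 in SaABE (edgeR adjusted p = 0.105), 0.12 in SpABE (0.0307) and 0.09 in SpCBE (0.114). The SaABE value passed at 0.045 without SaABE intergenic replicate 3. Over all runs without 1 library it ran from -0.12 to -0.04 (edgeR adjusted p 0.045 to 0.522). The SpABE adjusted p was over 0.05 without SpABE NRF1 replicate 1 (0.0556), 2 (0.0891) or 3 (0.065) or SpABE intergenic replicate 1 (0.107) or 2 (0.0798), and 0.0752 with no filter on low counts. ADCY3 overlaps CENPO, a centromere protein gene on the opposite strand, over 3208 bases. CENPO had 79.9 ± 3.55 CPM with NRF1 guides and 76.4 ± 3.94 CPM with intergenic guides (SD, n = 9 each), and rose by 0.07 on the log2 scale (edgeR adjusted p = 0.022). ADCY3 also overlaps the non-coding gene AC012073.1 over 1108 bases, at 3.40 ± 0.352 CPM with NRF1 guides and 3.33 ± 0.523 CPM with intergenic guides. The part of these overlaps in the ADCY3 values was not tested.

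ADCY5, a calcium-inhibited form known from striatum and heart, was the scarcest of the tested members, with 2.78 ± 0.756 CPM with NRF1 guides and 2.69 ± 0.556 CPM with intergenic guides (SD, n = 9 each). In SaABE cells it had 3.30, 4.30 and 3.52 CPM with the NRF1 guide, against 3.33, 2.64 and 3.14 CPM with the intergenic guide. In SpABE cells it had 2.22, 2.17 and 2.13 CPM with the NRF1 guide, against 1.84, 1.88 and 2.32 CPM with the intergenic guide. In SpCBE cells it had 2.29, 2.60 and 2.52 CPM with the NRF1 guide, against 3.03, 3.03 and 3.05 CPM with the intergenic guide. Only in SpCBE cells were the guides separate, with the NRF1-guide libraries lower. The log2 fold change was 0.03 over the 3 editors (95% interval -0.15 to 0.22, edgeR adjusted p = 0.823), 0.28 in SaABE (0.0957), 0.11 in SpABE (0.592) and -0.30 in SpCBE (0.106). ADCY5 had 64 to 128 counts per library, and the part of these low counts in the width of the intervals was not tested.

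**Figure D3:**
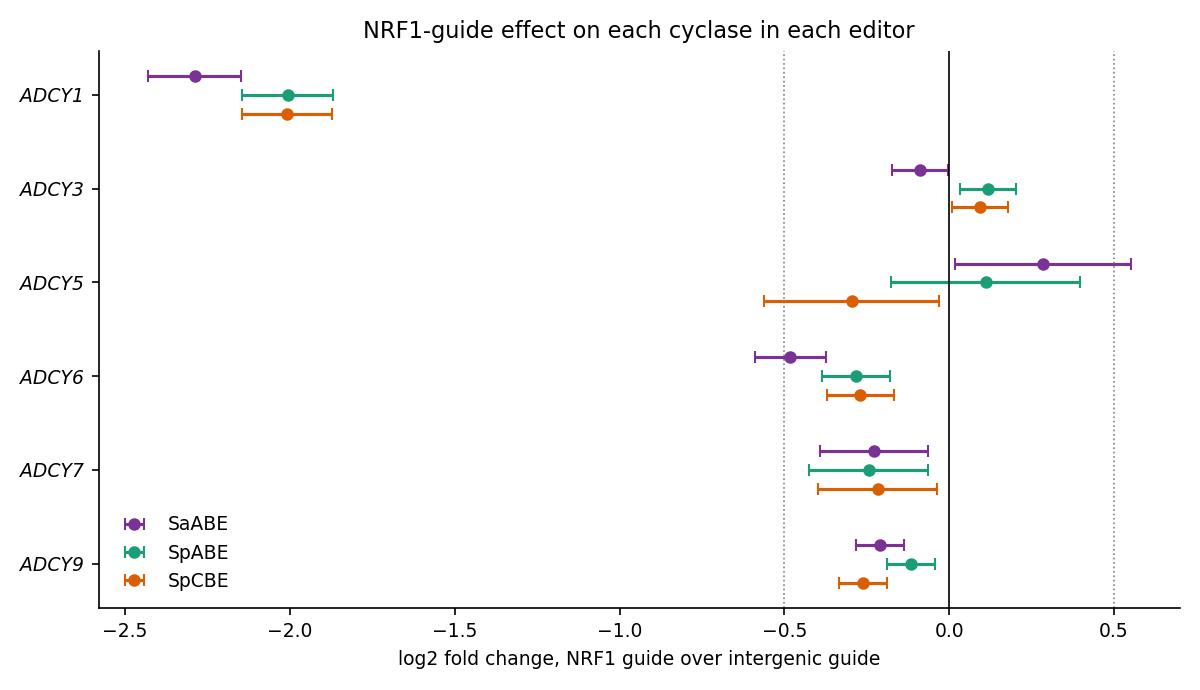
Log2 fold change of NRF1 guide over intergenic guide (x axis) for each tested cyclase (y axis) in SaABE, SpABE and SpCBE. Points are edgeR estimates, bars 95% intervals, and the dotted lines the fold threshold of 0.5. ADCY1 lies between -2.29 and -2.01, and the other members between -0.48 and 0.28.

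Of the 5 tested members other than ADCY1, 3 were lower and none higher past adjusted p over the 3 editors, where 18.8% of all tested genes were lower and 20.6% higher. In SaABE 3 were lower (all tested genes: 15.5% lower, 16.9% higher). In SpABE 3 were lower and 1, ADCY3, higher (17.3% lower, 15.4% higher). In SpCBE 2 were lower (12% lower, 11% higher). The median log2 fold change of these 5 members over the 3 editors was -0.20, and that of all tested genes 0.01. With DESeq2 the counts over the 3 editors were the same, but 2 were lower in SaABE and 1 in SpABE. At an unadjusted p under 0.05 none of the 5 was higher over the 3 editors and 1 was higher in SaABE and in SpCBE. Of all 17743 tested genes 8296 passed that unadjusted p in either direction over the 3 editors, 7273 in SaABE and 5907 in SpCBE. None of the 5 passed the fold threshold as well, with edgeR or DESeq2.

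The effects were then compared between editors, a contrast on which ADCY1 was not chosen. The study's NRF1 constructs were aimed at the splice donor or acceptor of the exon. Editor, guide, site and extent of exon skipping cannot be told apart in these differences. The effect on ADCY1 in SaABE minus that in SpABE was -0.28 on the log2 scale (95% interval -0.49 to -0.07, edgeR adjusted p = 0.0719). Against SpCBE the difference was -0.28 as well (95% interval -0.49 to -0.08, edgeR adjusted p = 0.117). Between SpABE and SpCBE it was 0.00 (95% interval -0.21 to 0.21, edgeR adjusted p = 0.997). None passed the threshold with all libraries. The difference from SpABE passed without SpCBE NRF1 replicate 1 (0.0476) or 2 (0.0496), and that from SpCBE without SpCBE NRF1 replicate 1 (0.0472). Over all runs without 1 library the difference from SpABE ran from -0.34 to -0.23 (edgeR adjusted p 0.0476 to 0.178). That from SpCBE ran from -0.37 to -0.22 (0.0472 to 0.295).

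Among the other members 1 difference between editors passed adjusted p, that of ADCY3 between SaABE and SpABE (-0.21, 95% interval -0.33 to -0.09, edgeR adjusted p = 0.0221). This is 1 of 6 tested members, where 11.7% of all tested genes passed. Its adjusted p was over 0.05 without SaABE NRF1 replicate 1 (0.0769), SaABE intergenic replicate 1 (0.0507), SpABE NRF1 replicate 2 (0.0524) or SpABE intergenic replicate 1 (0.0538) or 2 (0.0512). Between SaABE and SpCBE no member passed, where 4.09% of tested genes did, and between SpABE and SpCBE none did either, where 8.96% did. DESeq2 gave the same count of 0 for both pairs. At an unadjusted p under 0.05 in edgeR, 4 members differed between SaABE and SpCBE (ADCY1, ADCY3, ADCY5 and ADCY6). Of all 17743 tested genes 3213 did so at that unadjusted p. Between SpABE and SpCBE 2 members did, ADCY5 and ADCY9, beside 3868 of all tested genes. The effects on ADCY6 differed by -0.20 between SaABE and SpABE (edgeR adjusted p = 0.0773) and by -0.21 between SaABE and SpCBE (0.0997). The first passed without SaABE intergenic replicate 2 (0.0282) or 3 (0.0493), and the second without SaABE intergenic replicate 2 (0.0375). Over all runs without 1 library the first ran from -0.24 to -0.12 (edgeR adjusted p 0.0282 to 0.236). The second ran from -0.26 to -0.13 (0.0375 to 0.262). With no filter on low counts both passed (0.0458 and 0.0392). The effects on ADCY5 differed most between SaABE and SpCBE, by 0.58 (95% interval 0.20 to 0.96, edgeR adjusted p = 0.072).

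The levels without NRF1 targeting differed between editors for most cyclases. The SaABE and SpCas9 plasmids carried different intergenic guides, so nickase and guide cannot be told apart in the comparisons with SaABE. SpCBE also had another deaminase than SaABE and SpABE, and against SaABE that cannot be told apart from nickase and guide either. ADCY7 stood out, with 8.99 ± 0.358 CPM in the SaABE intergenic group, 5.26 ± 0.253 CPM in the SpABE one and 5.14 ± 0.401 CPM in the SpCBE one (SD, n = 3 each). The log2 fold change of ADCY7 was 0.77 for SaABE over SpABE (SE 0.082, edgeR adjusted p = 6.21e-08) and 0.80 for SaABE over SpCBE (SE 0.082, edgeR adjusted p = 2.85e-08). The overlapping BRD7 was 0.17 and 0.31 higher in the same 2 comparisons. The guide effects on ADCY7 lay between -0.24 and -0.22.

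ADCY5 was lowest in the SpABE intergenic group. It had 2.01 ± 0.269 CPM there, against 3.03 ± 0.0121 CPM in the SpCBE intergenic group (log2 fold change -0.59, SE 0.132, edgeR adjusted p = 0.00114). The SaABE intergenic group, at 3.03 ± 0.358 CPM, was 0.59 above SpABE on the log2 scale (SE 0.136, edgeR adjusted p = 0.00119) and its difference from SpCBE had a 95% interval of -0.27 to 0.26.

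ADCY1, ADCY3 and ADCY9 were also higher in the SaABE controls. ADCY1 was higher by 0.33 against SpABE (edgeR adjusted p = 4.59e-05) and by 0.18 against SpCBE (0.0131). ADCY1 was lower in SpABE than in SpCBE controls, with a log2 fold change of -0.15 (0.0344). The difference between SaABE and SpCBE rested on few libraries: its adjusted p was 0.121 without SaABE intergenic replicate 3 and 0.0554 without SpCBE intergenic replicate 1. That between SpABE and SpCBE was over 0.05 without SpABE intergenic replicate 1 (0.112) or 2 (0.0895), SpCBE intergenic replicate 2 (0.188) or 3 (0.0757) or SpCBE NRF1 replicate 3 (0.0516), and it was 0.0744 with DESeq2 and 0.0621 with no filter on low counts. In the NRF1 groups the mean level of ADCY1 was 7.28 to 8.10 CPM, and these groups were not tested against each other.

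ADCY3 was higher in SaABE controls by 0.33 against SpABE and 0.36 against SpCBE (edgeR adjusted p = 6.32e-07 and 1.54e-07). ADCY9 was higher by 0.39 and 0.22 (4.29e-09 and 2.21e-05), and was lower in SpABE than in SpCBE controls with a log2 fold change of -0.18 (0.000311). ADCY6 passed in none of these 3 comparisons, with values of 0.07, -0.05 and -0.12. The value of -0.12 between SpABE and SpCBE (adjusted p = 0.0576 in edgeR) passed without SaABE intergenic replicate 1 (0.0142) or 2 (0.0456) or SpCBE intergenic replicate 3 (0.0445). That between SaABE and SpCBE passed without SaABE intergenic replicate 1 (0.0178), at -0.13. Over all runs without 1 library the value between SpABE and SpCBE ran from -0.14 to -0.07 (edgeR adjusted p 0.0142 to 0.325). That between SaABE and SpCBE ran from -0.13 to -0.01 (0.0178 to 0.916).

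Past adjusted p, 5 of 6 tested members differed between the SaABE and SpABE controls (38.4% of all tested genes), 4 between SaABE and SpCBE (40.6%) and 3 between SpABE and SpCBE (35.5%). With the fold threshold as well, 2 were called between SaABE and SpABE, ADCY5 and ADCY7 (7.03% of all tested genes). ADCY7 alone was called between SaABE and SpCBE (8.04%), and ADCY5 alone between SpABE and SpCBE (6.19%). These 3 comparisons share control libraries with each other and with the guide effects.

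**Figure D4:**
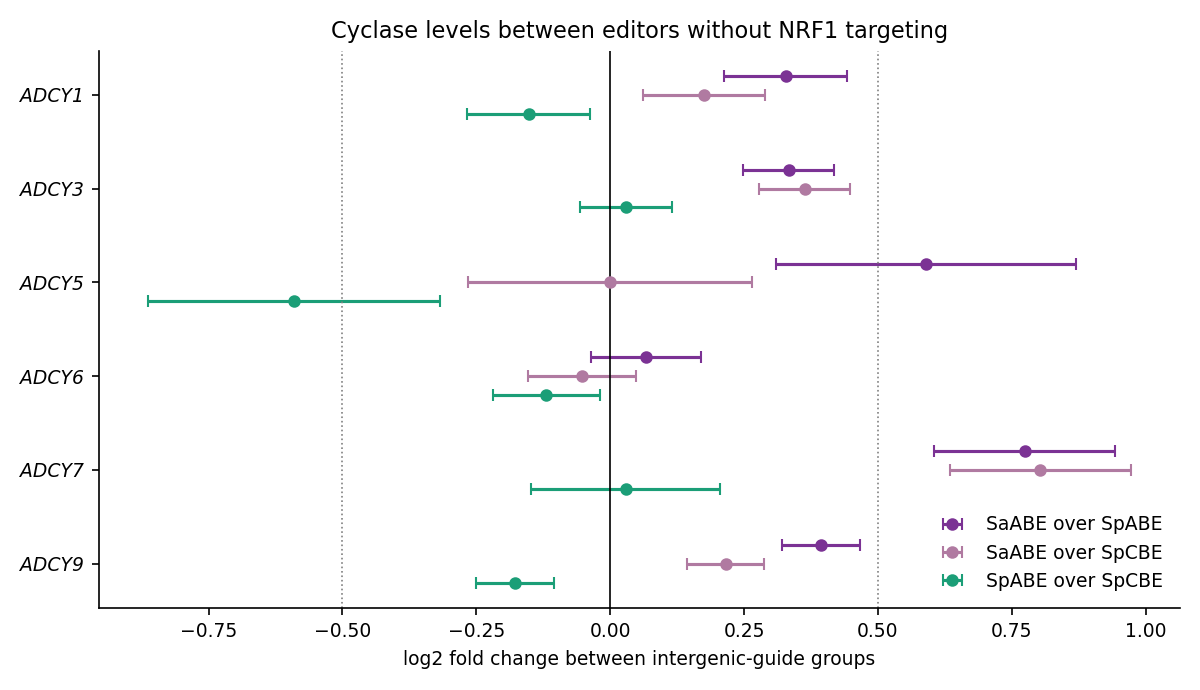
Log2 fold change between intergenic-guide groups (x axis) for each tested cyclase (y axis), for SaABE over SpABE, SaABE over SpCBE and SpABE over SpCBE. Points are edgeR estimates, bars 95% intervals, and the dotted lines the fold threshold of 0.5. ADCY7 lies at 0.77 and 0.80 in the comparisons with SaABE, and ADCY5 at 0.59 and -0.59 in those with SpABE.

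The nearest tested genes with a symbol beside ADCY1 were SEPT7P2, a pseudogene 13670 bases after its end, and TBRG4, 462092 bases before its start. SEPT7P2 had 13.1 ± 1.89 CPM with NRF1 guides and 12.4 ± 2.34 CPM with intergenic guides (log2 fold change 0.08, edgeR adjusted p = 0.152). TBRG4, which acts on mitochondrial RNA, had 86.5 ± 4.33 CPM with NRF1 guides and 88.2 ± 2.90 CPM with intergenic guides (log2 fold change -0.03, edgeR adjusted p = 0.347). Neither neighbour passed the test, and no tested gene overlapped ADCY1.

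The genes whose log2 CPM followed ADCY1 most closely over the 18 libraries, of 11209 with a mean of at least 5 CPM after genes named only by a clone were left out, were PCCB (Pearson r = 0.996), ATP6V0E2 (0.995), NDRG3 (0.994), EMC10 (0.993) and PUDP (0.993). PCCB encodes a subunit of propionyl-CoA carboxylase and ATP6V0E2 one of the vacuolar proton pump. The 18 points share guides and libraries and fall into a cluster per guide, so these values describe the difference between guides and carry no test. PCCB had 21.9 ± 1.46 CPM with NRF1 guides and 65.5 ± 5.02 CPM with intergenic guides (SD, n = 9 each). None of the 5 is a cyclase.

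The rest of the pathway was read from 11 lists of genes upstream and downstream of the cyclases. Of their 125 genes 104 were tested, and over the 3 editors 29 were higher and 22 lower past adjusted p, beside 20.6% and 18.8% of all tested genes. Levels are given as mean and SD over 9 libraries per guide. No list gene was called higher, with edgeR or DESeq2, and 6 were called lower. Of all 17743 tested genes, 200 were called higher and 776 lower in edgeR, so calls were mostly falls there too. In the lists given below without a gene in one direction, none passed an unadjusted p of 0.05 in that direction with either tool. Upstream, 4 of 13 tested Gs-coupled receptors were lower and none higher, with a list median of -0.02 on the log2 scale (all tested genes 0.01). ADCYAP1R1, the PACAP receptor, had 7.37 ± 0.763 CPM with NRF1 guides and 9.77 ± 2.09 CPM with intergenic guides (log2 fold change -0.39, edgeR adjusted p = 2.49e-06). MC1R, the melanocortin receptor of pigment cells, fell by 0.43 (7.28e-05), CALCRL by 0.35 (0.00138) and HTR6 by 0.30 (0.0168) on the same scale.

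Among the G protein alpha subunits 4 of 7 were higher and 2 lower, with a median of 0.08. GNAS, which encodes Gs itself, had 1111 ± 120 CPM with NRF1 guides against 1054 ± 122 CPM with intergenic guides, a log2 fold change of 0.08 (edgeR adjusted p = 0.00102). GNAI3 rose by 0.08 (0.0035) and GNAZ by 0.18 (0.0026). GNAO1, the Go subunit abundant in neurons, fell by 0.61 on the log2 scale (9.14e-09), to 5.40 ± 1.41 CPM with NRF1 guides against 8.19 ± 1.53 CPM with intergenic guides. Of 13 tested beta and gamma subunits 5 were higher and none lower, with a median of 0.05, among them GNG10 (0.13), GNB5 (0.13), GNG4 (0.10) and GNB1 (0.06), with adjusted p of 9.01e-05, 0.00122, 0.00643 and 0.00265 in edgeR.

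Of 9 regulators of cyclase activity 7 were higher and 1 lower, with a median of 0.09. CALM3, a calmodulin gene whose product stimulates ADCY1, rose by 0.15 on the log2 scale (edgeR adjusted p = 9.18e-07). RGS2, which can inhibit cyclases, rose by 0.31 (7.30e-05), with 0.40 in SaABE, 0.49 in SpABE and 0.03 in SpCBE. MYCBP2, a ubiquitin ligase that has also been described as a cyclase inhibitor, fell by 0.82 (1.51e-16), to 99.0 ± 6.53 CPM with NRF1 guides against 175 ± 8.51 CPM with intergenic guides, and its guides did not overlap. Of the other nucleotide cyclases, soluble ADCY10 and the guanylyl cyclases, 1 of 6 tested passed: GUCY1A1, a subunit of the nitric oxide receptor, rose by 0.29 (0.000486). ADCY10 had 0.762 ± 0.397 CPM with NRF1 guides against 0.927 ± 0.335 CPM with intergenic guides (0.196).

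Downstream, 3 of 9 tested protein kinase A subunits and inhibitors were higher and 2 lower, with a median of 0.06. The regulatory subunit PRKAR2A fell by 0.21 (edgeR adjusted p = 2.08e-07), to 193 ± 5.37 CPM with NRF1 guides against 223 ± 14.9 CPM with intergenic guides, with no overlap. PRKAR1B fell by 0.18 (0.000818), while the catalytic subunit PRKACB rose by 0.13 (0.000498) and the inhibitor PKIA by 0.17 (0.000822). Of 14 tested phosphodiesterases that degrade cyclic AMP 6 were lower and 1 higher, with a median of -0.11. PDE4D fell by 0.28 (7.55e-05), PDE8A by 0.11 (0.00204) and PDE11A by 0.39 (0.0166), and PDE10A rose by 0.22 (0.00131). PDE4C, named after its values were seen because it was the only one called, fell by 0.91 (0.0255) at 0.308 CPM with NRF1 guides against 0.571 CPM with intergenic guides.

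Of 11 tested A-kinase anchors, which hold protein kinase A at sites in the cell, 3 were higher and 4 lower, with a median of 0.05. AKAP3, known from the sperm tail, fell by 1.14 (edgeR adjusted p = 1.17e-09), to 1.36 ± 0.246 CPM with NRF1 guides against 3.01 ± 0.630 CPM with intergenic guides, with no overlap. AKAP9 fell by 0.25 (1.20e-07) and AKAP1, a mitochondrial anchor, by 0.15 (3.50e-06), while AKAP8 rose by 0.20 (5.33e-08). Among 8 CREB factors and coactivators 1 was lower and 1 higher, with a median of 0.02. CRTC1, a coactivator of CREB, fell by 0.82 (1.04e-12), to 15.8 ± 1.88 CPM with NRF1 guides against 28.02 ± 1.54 CPM with intergenic guides, and ATF1 rose by 0.15 (6.02e-05). Of 5 other effectors 2 were lower, with a median of -0.16: BVES, a cyclic AMP-binding membrane protein, by 0.69 (8.13e-13) and RAPGEF4, an Epac exchange factor, by 0.28 (0.00336).

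Of 9 tested genes known as CREB targets 4 were higher and none lower, with a median of 0.22. FOS had 38.9 ± 20.4 CPM with NRF1 guides against 29.6 ± 10.1 CPM with intergenic guides, a log2 fold change of 0.30 over the 3 editors (edgeR adjusted p = 0.0052) made up of 0.26 in SaABE, 0.70 in SpABE and -0.24 in SpCBE. DUSP1 rose by 0.28 (0.00317), with 0.19, 0.72 and -0.09 in the same order. NR4A2 rose by 0.23 (0.00611) and FOSB by 0.17 (0.00407). In SpCBE cells FOS, FOSB and DUSP1 had negative values. These lists were chosen with results of these data known, and several of their genes respond to signals other than cyclic AMP, which was not measured.

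**Figure D5:**
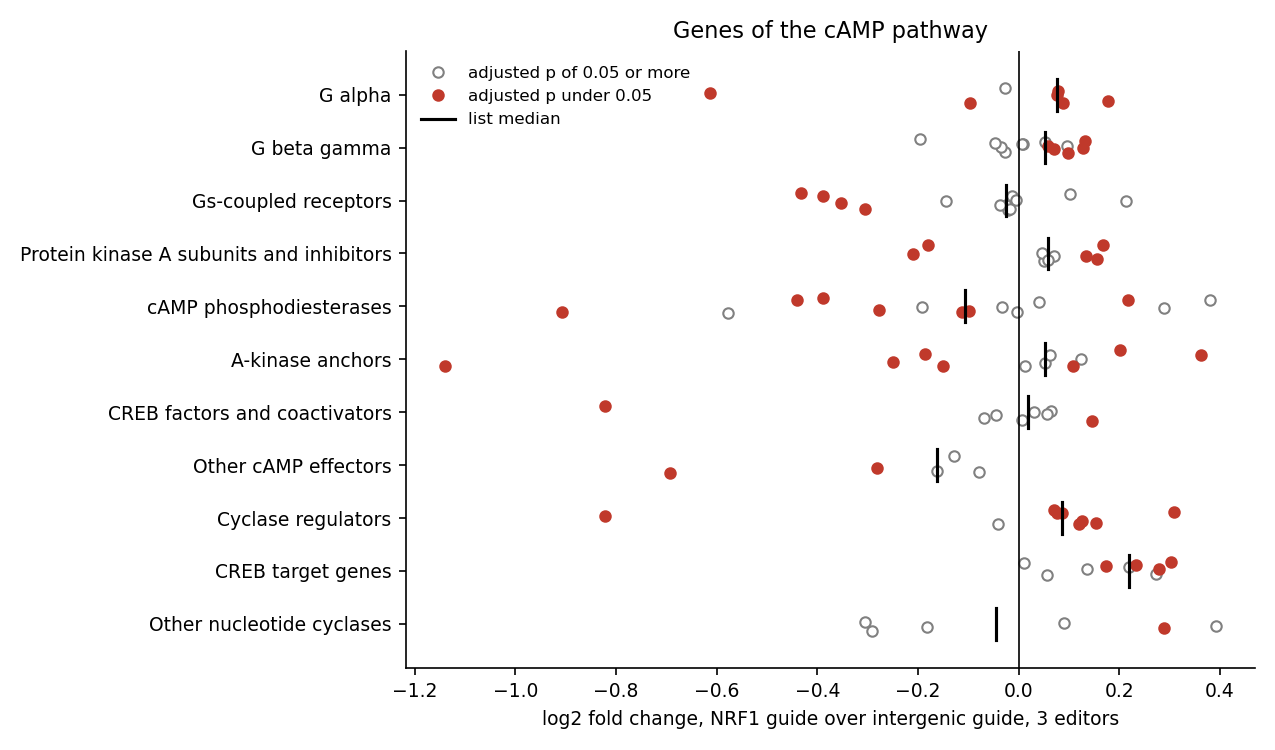
Log2 fold change of NRF1 guide over intergenic guide over the 3 editors (x axis) for each tested gene of 11 cyclic AMP pathway lists (y axis). Filled points passed an adjusted p of 0.05, and black lines are list medians, which run from -0.16 for the other effectors to 0.22 for the CREB targets. The 6 genes called lower lie at -0.61 and below.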

How the data were processed

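The authors trimmed reads of a stranded mRNA kit with Cutadapt 1.18, mapped them to hg38 and GENCODE 30 with STAR 2.7.0f in 2-pass mode, and deposited estimated counts per gene without normalization. DESeq2 1.46.0 is also among the tools in the submitters' processing notes. For the counting program and its strand setting, the sources used here give no name. Of the nonzero estimated counts 19.63% were not whole, and they were rounded although whole counts had been planned for. Of 36 sample columns 18 belong to other samples and were not used.

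edgeR 4.0.16 (R 4.3.3) quasi-likelihood tests ran on all 17743 genes kept by filterByExpr, with TMM scaling and Benjamini-Hochberg adjustment over all of them. The comparison over 3 editors had the editor as an additive term, and the other contrasts came from 6 group means over 18 libraries. Steps were tested on simulated data. Nothing in the labels says that replicates were separate cultures, so the spread behind the p-values is that of these libraries and may be technical. All pairs within a group differed by more than sampling noise (lowest chi-square per degree of freedom 1.92).

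Levels per kilobase divide CPM by the union of exons in GENCODE 44, where 58517 identifiers were found, and promoter windows are RefSeq's. Named genes were all members, NRF1, up to 4 genes per list with the smallest p past adjusted p 0.05, the 5 genes most correlated with ADCY1, its nearest tested neighbours and genes overlapping a member. A gene of the cyclase regulator list that this rule names is not reported here. Members and lists were chosen with earlier results of these data known. Alternatives were edgeR's RLE scaling, DESeq2 1.42.0, no or a stricter filter on low counts (CPM of at least 1 in 9 libraries), leaving out each library, a replicate block, no editor term, and each editor's libraries alone. Intervals are at the 95% level.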

Additional observations from a re-analysis of the deposited data

Results flagged for a closer look

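The effect of the NRF1 guide on ADCY3 differed between SaABE and SpABE in a test of the difference itself, -0.21 on the log2 scale (edgeR adjusted p = 0.0221), and DESeq2 passed it too. It did not pass with the replicate block (0.0542) or without any 1 of 5 libraries (adjusted p 0.0507 to 0.0769). The effect was -0.09 in SaABE and 0.12 in SpABE. In the intergenic controls, ADCY3 was 0.33 higher in SaABE than in SpABE on the log2 scale, and the same control libraries enter both values. Their part in the difference was not tested, and editor and NRF1 guide cannot be told apart in it. No other of the 6 tested cyclases differed between editors in its effect past an adjusted p of 0.05. Groups of 3 libraries are too small to search for a library far from the others.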

How the results depend on the processing

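ADCY1 stayed between -2.12 and -2.07 over the 3 editors on the log2 scale without any 1 library, and between -2.11 and -2.09 under the other alternatives. No direction of a value that passed reversed. Of 402 alternative values for the comparison over 3 editors and the counts of called members, 397 were rated the same. For tested members that meant the same side of an adjusted p of 0.05, and for counts an equal or close number. For ADCY1, untested there, it meant a shift under 0.09, its pooled SD within groups on the log2 scale. The exceptions came without the editor term, where ADCY7 (-0.23, edgeR adjusted p = 0.427) and ADCY9 (-0.20, 0.053) no longer passed and 2 members in place of 4 passed adjusted p. Others came in SaABE, where 1 to 2 members were called without 1 library. ADCY1, which was chosen on these data, is among the members in each of these counts. Its own values and its call are part of the 397, so that number is not a test of stability. Without the editor term, differences between editors count as spread. Of 1260 values for single members within or between editors, 42 fell short of the threshold and 13 newly passed it. The cause of each change was not tested.

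The replicate number was also fitted as a block. Deviations of same-numbered libraries of the 2 guides correlated between -0.35 and 0.17 over 10023 genes, over 0.1 in 2 of 9 pairs. Pairs with different numbers ran from -0.31 to 0.38. Whether libraries of the 2 guides share a culture or batch under another numbering was not tested. With the replicate block the values over the 3 editors were -2.10 for ADCY1, -0.34 for ADCY6, -0.23 for ADCY7 and -0.20 for ADCY9. As without the block, 1 member was called, ADCY1 itself, and 4 were past adjusted p with ADCY1 among them. ADCY1 was chosen on this comparison, so its part in these counts is not a test. Of 71 results 4 fell short with the block: ADCY7 in SaABE (edgeR adjusted p = 0.0652) and SpABE (0.0676), ADCY3 in SpABE (0.0599) and the ADCY3 difference between SaABE and SpABE (0.0542).

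ADCY2, ADCY4 and ADCY8 had no more than 3 counts per library and were not tested. Over the 3 editors the SE was 0.090 for ADCY5, 0.047 for ADCY7 and 0.047 for ADCY1. The part of sequencing depth in these values was not tested.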
